A study of Drosophila melanogaster and Drosophila miranda with 8 samples.

Results

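Muller element E is a chromosome arm of *Drosophila* whose gene content is largely kept together between species. It is arm 3R in *D. melanogaster* and the sequence named Muller-E in the lists of *D. miranda*, and it is an autosome in both. The CLAMP peaks described here are all peaks whose chromosome name is 3R or Muller-E, 8161 of the 33972 peaks in the 4 lists. They comprise 2363 of 9080 and 1960 of 8792 peaks in *D. melanogaster* replicates 1 and 2, and 853 of 3577 and 2985 of 12523 in *D. miranda* replicates 1 and 2. Heterochromatic sequence named 3RHet was not included.

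CLAMP occupancy was mapped by ChIP-seq, in which crosslinked chromatin is recovered with an antibody against CLAMP and sequenced, in wild type female larvae of the third instar. Each species had 2 ChIP libraries and 2 input libraries, the inputs being chromatin sequenced without antibody selection. *D. melanogaster* was kept at 21°C and *D. miranda* at 18°C, so an effect of species and an effect of temperature cannot be told apart. Chromatin came from pools of whole larvae, so each list averages over many cell types. Each list is compared only within itself, as Muller E against the other assembled chromosomes. These are X, 2L, 2R, 3L and 4 in *D. melanogaster* and the Muller elements A, AD, B, C and F in *D. miranda*.

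CLAMP is a zinc finger protein that binds GA-rich sequence. In *D. melanogaster* males, it links the MSL dosage compensation complex to the X-chromosome. It also occupies GA-rich sites on autosomes, and in females the MSL complex is not assembled on the X. All libraries here are from females, so neither Muller E nor the X-linked arms it is compared with are expected to carry the MSL complex. The study asked whether CLAMP binding is conserved between the species.

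Peaks were more closely spaced on 3R than on any other large arm in *D. melanogaster* replicate 1, but not in replicate 2. The 3R arm held 84.7 peaks per Mb in replicate 1 (exact 95% Poisson interval 81.3 to 88.2), against 71.7 (70.0 to 73.5) on the other chromosomes. The other large arms lay between 69.9 and 73.7 peaks per Mb, so that 3R stood apart from all of them. The arm held 70.3 peaks per Mb in replicate 2 (67.2 to 73.5), against 70.0 (68.3 to 71.7) on the other chromosomes. In *D. miranda*, Muller E held 25.9 peaks per Mb in replicate 1 (24.2 to 27.7), against 26.3 (25.3 to 27.3) elsewhere. In the longer list of *D. miranda* replicate 2 it held 90.5 peaks per Mb (87.3 to 93.8), against 92.0 (90.1 to 93.8) elsewhere.

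**Figure D1:**
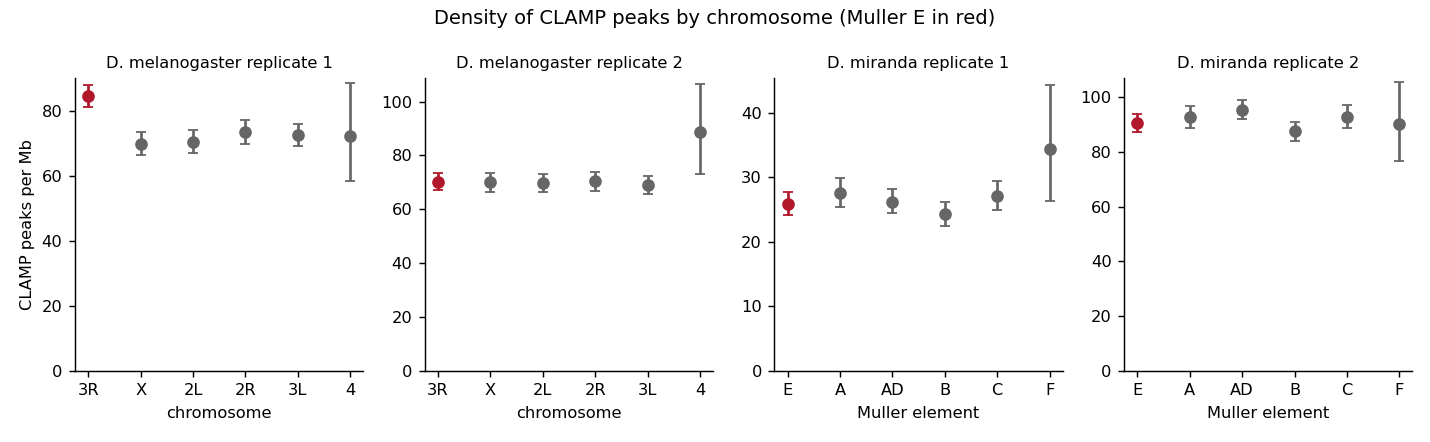
CLAMP peaks per Mb on each chromosome in the 4 lists, with Muller E in red at the left of each panel and exact 95% Poisson intervals as bars, on axes that differ between panels. In *D. melanogaster* replicate 1 the point for 3R, at 84.7 peaks per Mb, lies above those of all other chromosomes, while in the other 3 lists Muller E lies among them.

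The density on Muller E was tested against that on the other chromosomes of the same list by an exact conditional binomial test, two-sided, with Benjamini-Hochberg adjustment over the 4 lists. In *D. melanogaster* replicate 1 the ratio was 1.18 (exact 95% interval 1.13 to 1.24, adjusted p = 2.68e-11). In replicate 2 it was 1.00 (0.954 to 1.06, adjusted p = 0.877 by the exact test). In *D. miranda* it was 0.984 in both replicates, with intervals of 0.910 to 1.06 in replicate 1 and 0.944 to 1.03 in replicate 2 (adjusted p = 0.877 in each by the exact test). The higher density on 3R thus passed the test in 1 of 2 *D. melanogaster* libraries. Because the tests count peaks within a library, they and the intervals cover counting error only and describe the libraries. Against autosomes only, the *D. miranda* ratios lay above 1, at 1.04 in replicate 1 and 1.03 in replicate 2.

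Against single chromosomes, the ratio for 3R in *D. melanogaster* replicate 1 was 1.21 to X (95% interval 1.14 to 1.29), 1.199 to 2L (1.13 to 1.28), 1.15 to 2R (1.08 to 1.23) and 1.17 to 3L (1.10 to 1.24). None of these intervals includes 1. In replicate 2 the same ratios lay between 0.999 and 1.02. Against the small chromosome 4, the ratio was 1.17 (0.952 to 1.46) in replicate 1 and 0.792 (0.656 to 0.966) in replicate 2. In *D. miranda*, Muller E lay between Muller B, the other large autosome, and the X-linked arms in both replicates. In replicate 1 its ratio was 1.07 to Muller B (0.963 to 1.18), 0.937 to Muller A (0.844 to 1.04), 0.987 to Muller AD (0.895 to 1.09) and 0.955 to Muller C (0.857 to 1.06). In replicate 2 it was 1.04 to Muller B (0.981 to 1.09), 0.977 to Muller A (0.923 to 1.03), 0.949 to Muller AD (0.901 to 0.999) and 0.975 to Muller C (0.920 to 1.03). Apart from the ratio to Muller AD in replicate 2, the intervals of these 8 ratios include 1. That interval ends at 0.999, is not adjusted for the number of ratios and does not allow for uneven spacing of peaks. Against the small Muller F, the ratio was 0.752 (0.579 to 0.991) in replicate 1 and 1.00 (0.855 to 1.18) in replicate 2.

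In *D. melanogaster* replicate 1, the additional peaks on 3R were found in peaks of every level and width. Each peak carries 1 value, taken here to be the enrichment of ChIP over input on a log2 scale, and each list was divided into 4 classes by this value. From the lowest to the highest class, the density ratio of 3R to the other chromosomes was 1.24 (95% interval 1.13 to 1.36), 1.16 (1.06 to 1.27), 1.11 (1.01 to 1.23) and 1.21 (1.09 to 1.34). By width, it was 1.13 (1.02 to 1.24) for peaks of exactly 1000 bp, the smallest width in the list. It was 1.26 (1.14 to 1.38) for the widest of 3 classes of the remaining peaks. These ratios are described without a test of their own.

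In *D. melanogaster* replicate 2, it was the level of the peaks that differed on 3R. The median value was 2.09 on 3R (interquartile range 1.77 to 2.49), against 2.24 (1.88 to 2.74) on the other chromosomes. All other large arms were higher, with medians of 2.27 on X, 2.28 on 2L, 2.18 on 2R and 2.21 on 3L. Only 128 of the 1960 peaks on 3R (6.53%) were among the peaks of highest value in the list, defined as its upper 10% with ties included, against 10.8% of all assembled peaks. From the lowest to the highest class of value, the density ratio of 3R was 1.37 (95% interval 1.25 to 1.51), 1.10 (0.997 to 1.22), 0.955 (0.860 to 1.06) and 0.649 (0.576 to 0.729). The same number of peaks per Mb in this library thus comprised more peaks of low value and fewer of high value than on the other chromosomes. This is a description of 1 library, with no test of the classes.

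**Figure D2:**
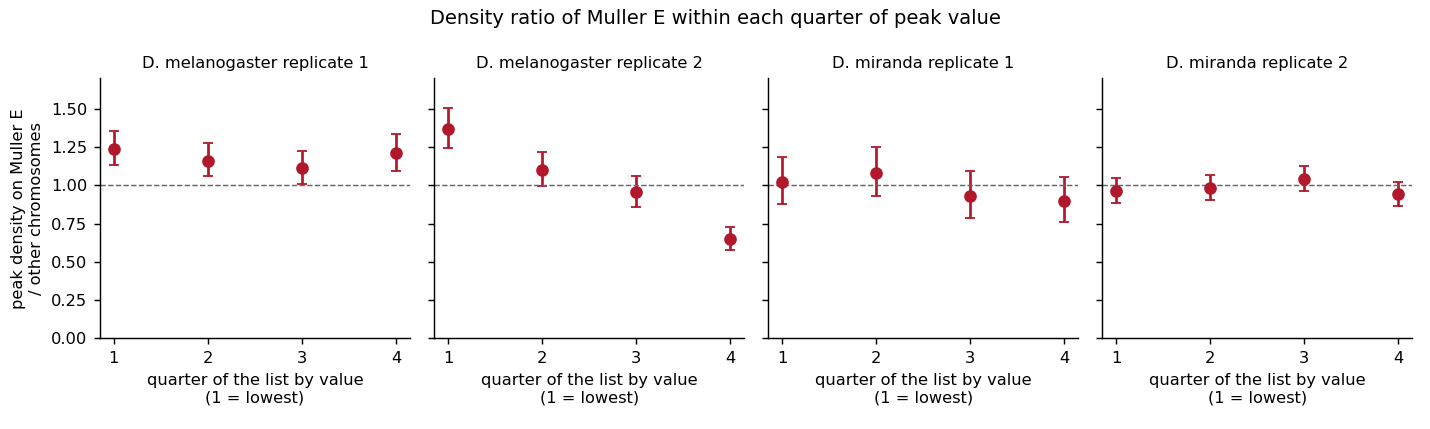
Density of peaks on Muller E divided by that on the other assembled chromosomes, within each of 4 classes of the list by peak value from lowest (1) to highest (4), with exact 95% intervals as bars and a dashed line at a ratio of 1. The 4 points of *D. melanogaster* replicate 1 lie between 1.11 and 1.24, those of replicate 2 decline from 1.37 to 0.649, and the intervals of all *D. miranda* points include 1.

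The values on Muller E in the other 3 lists were close to those of the remaining chromosomes. In *D. melanogaster* replicate 1 the median was 3.12 on 3R and 3.12 elsewhere, with the same interquartile range of 2.84 to 3.49. Values in this list take few levels, and 356 of the peaks on 3R (15.1%) share the single value of 2.84. Of the peaks on 3R, 263 (11.1%) were among the highest, against 11.1% of all assembled peaks. In *D. miranda* replicate 1 the median was 3.96 on Muller E and 3.96 elsewhere, and 173 of 853 peaks (20.3%) were among the highest, against 22.0% of all. That share is far above 10% because many peaks tie at the value that marks the upper 10%. In *D. miranda* replicate 2 the median was 1.91 on Muller E and 1.90 elsewhere, and 299 of 2985 peaks (10.02%) were among the highest, against 10.6%. Values of different lists are not on a shared scale and were not compared.

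Peak widths on Muller E were close to those elsewhere in all 4 lists. Median widths were 1307 bp on 3R against 1294.5 bp elsewhere in *D. melanogaster* replicate 1 and 1512.5 bp against 1514.5 bp in replicate 2. They were 1297 bp on Muller E against 1289 bp elsewhere in *D. miranda* replicate 1 and 1369 bp against 1401.5 bp in replicate 2. The widest of the 3 classes in this last list was less dense on Muller E, with a ratio of 0.901 (0.832 to 0.975). Because the peaks of *D. melanogaster* replicate 1 were more numerous but not narrower, they covered 12.5% of 3R, against 10.5% of the other chromosomes. In replicate 2, peaks covered 11.2% of 3R and 11.2% of the other chromosomes. In *D. miranda*, they covered 3.76% of Muller E against 3.87% elsewhere in replicate 1, and 13.7% against 14.4% in replicate 2.

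Along 3R, both the higher density of replicate 1 and the lower values of replicate 2 were spread over the arm. In replicate 1, the 27 full windows of 1 Mb held 68 to 105 peaks with a median of 86, against 28 to 95 with a median of 73 in the 90 windows of the other chromosomes. Of the 27 windows on 3R, 23 lay above that median. In replicate 2, they held 55 to 88 peaks with a median of 72, against a median of 70.5 elsewhere, and 17 of 27 lay above it. The median value of a window on 3R in replicate 2 lay below the median of the other chromosomes in 26 of 27 windows, and ranged from 1.90 to 2.34. The exception was the first window of the arm, with a median value of 2.34 over 84 peaks. On the other chromosomes, 55 of 90 windows lay below. In replicate 1, 11 windows on 3R lay below and 8 above.

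**Figure D3:**
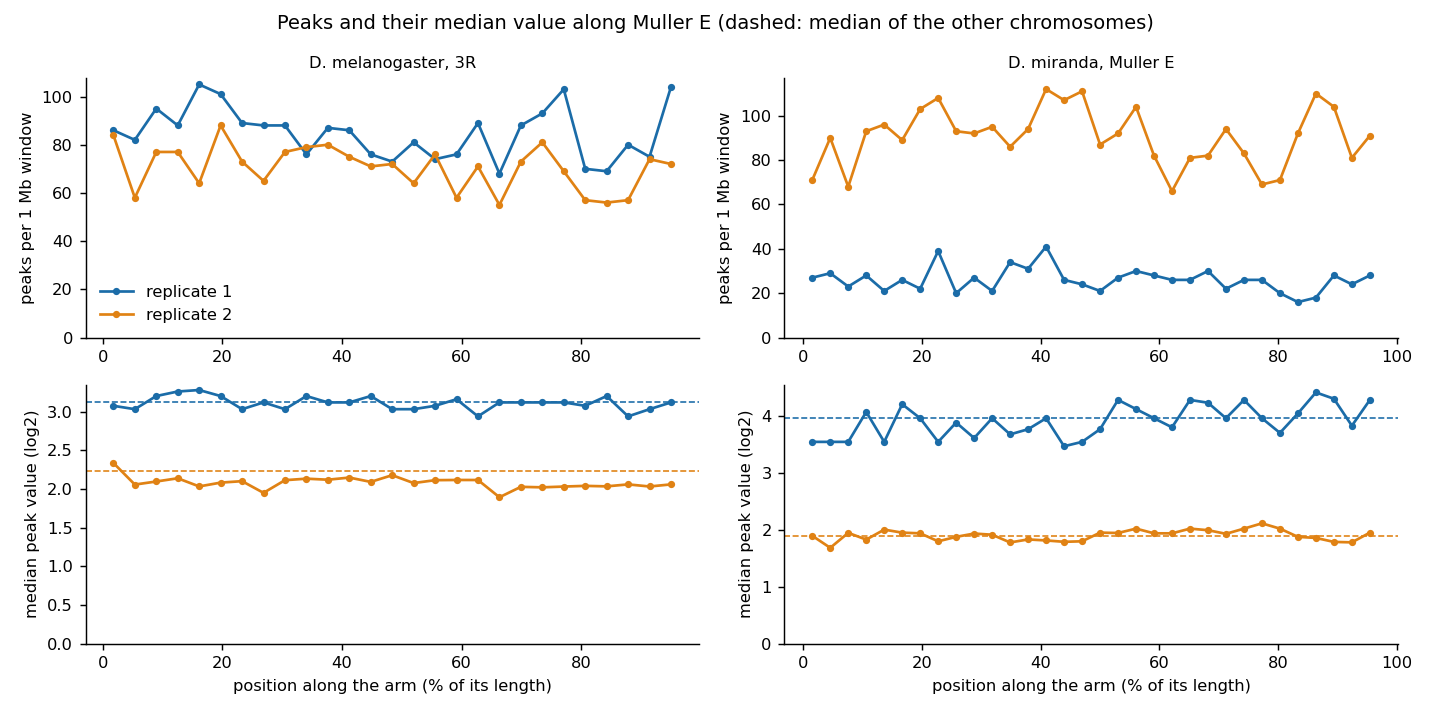
Peaks per 1 Mb window (top) and their median log2 value (bottom) along 3R of *D. melanogaster* (left) and Muller E of *D. miranda* (right), with replicate 1 in blue, replicate 2 in orange and the median value of the other chromosomes as dashed lines. The orange line for *D. melanogaster* lies below its dashed line in 26 of 27 windows, and every window holds peaks of both replicates.

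In *D. miranda*, the 32 full windows held 16 to 41 peaks in replicate 1 and 66 to 112 in replicate 2. The medians were 26 and 92 peaks, against 26 and 93 in the 101 windows of the other chromosomes. The median value of the windows lay below that of the other chromosomes in 15 and above it in 11 windows of replicate 1, and below in 13 and above in 18 windows of replicate 2. Divided into 3 parts of equal length, the arm held 25.6, 28.6 and 23.3 peaks per Mb in replicate 1 and 90.7, 93.0 and 87.8 in replicate 2. The middle part was the densest in both replicates, although the 95% intervals of neighboring parts overlap. On 3R, the first part, which lies nearest the centromere, was the densest in both replicates. It held 90.5 peaks per Mb in replicate 1 (84.4 to 96.8) against 79.3 (73.6 to 85.2) and 84.4 (78.6 to 90.5) in the next parts. In replicate 2 the 3 parts held 74.1 (68.7 to 79.9), 70.0 (64.7 to 75.6) and 66.7 (61.5 to 72.1) peaks per Mb.

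The fullest and sparsest windows were picked by the peak count summed over both replicates, so their counts are a description of that choice. On 3R, the window from 5000001 to 6000000 (dm3) had the highest sum, with 101 and 88 peaks in replicates 1 and 2 and 35 shared regions, although other windows of replicate 1 held up to 105 peaks. The window from 18000001 to 19000000 had the lowest sum, with 68 and 55 peaks and 6 shared regions. In *D. miranda*, the window from 13000001 to 14000000 had the highest sum, with 41 and 112 peaks and 17 shared regions. The lowest sum of 91 peaks was shared by 2 windows, of which that from 2000001 to 3000000 held 23 and 68 peaks with 5 shared regions. It was the sparsest window in neither replicate alone, where the lowest counts were 16 and 66 peaks. Over all windows, the numbers of peaks in the 2 replicates had a Pearson correlation of 0.44 on 3R (Spearman 0.39, 27 windows) and 0.20 on Muller E of *D. miranda* (Spearman 0.08, 32 windows). These are descriptions over windows of 1 arm, not tests.

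Neighboring peaks on Muller E were separated by a median gap of 6767.5 bp on 3R in *D. melanogaster* replicate 1, against 7916 bp elsewhere. In replicate 2 the gap was 8535 bp on 3R, against 8418 bp elsewhere. In *D. miranda* it was 26421.5 bp on Muller E against 24392 bp in replicate 1, and 6214.5 bp against 6176 bp in replicate 2. Close neighbors, less than 1 kb apart, made up 9.10% of neighboring pairs on 3R against 8.79% elsewhere in replicate 1, and 8.68% against 8.59% in replicate 2. In *D. miranda* they made up 2.82% on Muller E against 3.05% elsewhere in replicate 1. In its replicate 2 they made up 10.3% on Muller E against 11.7% elsewhere, where the large arms lay between 11.4% and 11.9%. The longest stretch without a peak was 117243 and 99475 bp on 3R and 247093 and 102030 bp on Muller E of *D. miranda*, in replicates 1 and 2.

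To find regions with a peak in both libraries, peaks of the 2 replicates were joined. A peak was joined with any peak of the other replicate that shared 1 bp or more with it. On 3R, 568 of 2363 replicate 1 peaks (24.0%, exact 95% interval 22.3 to 25.8) overlapped a replicate 2 peak, where 25.7% of all assembled peaks did. In the other direction, 566 of 1960 replicate 2 peaks on 3R (28.9%, 26.9 to 30.9) overlapped a replicate 1 peak, where 27.4% of all did. On Muller E of *D. miranda*, 307 of 853 replicate 1 peaks (36.0%, 32.8 to 39.3) were overlapped, where 37.5% of all were. Of the 2985 replicate 2 peaks, 313 (10.5%, 9.41 to 11.6) were overlapped, where 10.9% of all were. The shares on Muller E were therefore close to those of the lists as a whole.

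Requiring peak centers within 200 bp of each other left 112 peaks of each replicate on 3R. These were 4.74% of the replicate 1 peaks, against 5.11% of all, and 5.71% of the replicate 2 peaks, against 5.45% of all. In *D. miranda*, it left 56 peaks of each replicate, 6.57% against 7.49% of all in replicate 1 and 1.88% against 2.14% of all in replicate 2. On Muller E, peaks matched in this way were wider than the unmatched peaks. The other chromosomes were not compared in this respect. Their median width was 1765 bp against 1298 bp for the unmatched peaks of 3R in replicate 1 and 1862.5 bp against 1502 bp in replicate 2. In *D. miranda*, it was 1887 bp against 1275 bp and 1827.5 bp against 1365 bp. The median value of the matched peaks was not higher in any of the 4 lists, with 3.12 against 3.12 and 2.08 against 2.09 on 3R, and 3.50 against 3.96 and 1.85 against 1.91 on Muller E of *D. miranda*.

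Overlap also depends on how much of the arm the other list covers. The share of peak centers that fell inside a peak of the other replicate was therefore set against the share of the arm covered by those peaks. The covered share is what centers placed without regard to the other list would reach. A region with peaks of both replicates therefore need not mark joint occupancy. On 3R, 15.6% of replicate 1 centers lay in a replicate 2 peak, with 11.2% of the arm covered, or 1.39 times the coverage, against 1.50 times on the other chromosomes. For replicate 2 centers on 3R, 17.4% lay in a replicate 1 peak, with 12.5% covered, or 1.40 times, against 1.53 times elsewhere. On Muller E of *D. miranda*, 24.3% of replicate 1 centers lay in a replicate 2 peak, with 13.7% covered, or 1.76 times, against 1.89 times elsewhere. For its replicate 2 centers it was 6.53% with 3.76% covered, or 1.74 times, against 1.79 times. Muller E thus had a lower value than the pooled other chromosomes in all 4 lists, but its intervals overlapped those of each other chromosome, and the difference was not tested.

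**Figure D4:**
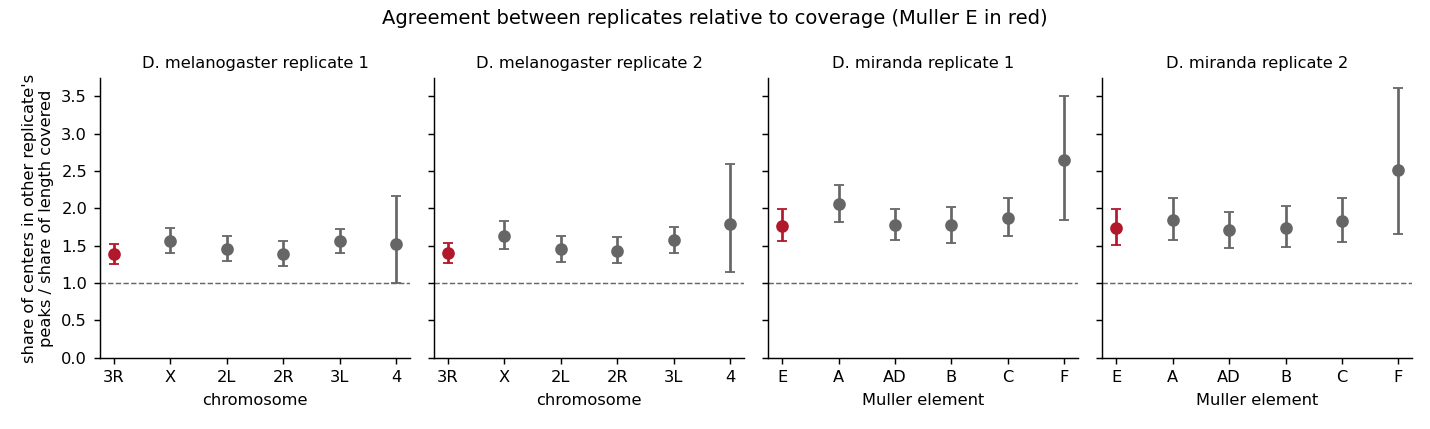
Share of peak centers that fall inside a peak of the other replicate, divided by the share of the chromosome that those peaks cover, with exact 95% binomial intervals of the share as bars and a dashed line at 1. Muller E, in red, has values of 1.39, 1.40, 1.76 and 1.74 in the 4 lists, above 1 in each, and its intervals overlap those of each other chromosome.

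The linked peaks formed 548 shared regions on 3R and 299 on Muller E of *D. miranda*. This is 19.6 per Mb on 3R (95% interval 18.0 to 21.4) and 9.06 per Mb on Muller E of *D. miranda* (8.07 to 10.2). Relative to the other chromosomes, the density ratio was 1.08 on 3R (0.982 to 1.19, exact conditional binomial test, two-sided, adjusted p = 0.216 over the 2 species). It was 0.939 on Muller E of *D. miranda* (0.822 to 1.07, adjusted p = 0.347 by the same exact test). Neither ratio was distinguishable from 1. The peaks of *D. melanogaster* replicate 1 alone gave 1.18 on 3R, which passed the test, and those of replicate 2 alone gave 1.00.

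Most shared regions joined 1 peak of each replicate, 513 of 548 on 3R and 278 of 299 on Muller E of *D. miranda*. The median overlap was 1000 bp in each species, and the median distance between the nearest centers was 544.5 bp on 3R and 552 bp on Muller E of *D. miranda*. Values in the shared regions of 3R ran from 0.89 to 5.60 in replicate 1 and from 1.01 to 4.97 in replicate 2. In *D. miranda*, they ran from 0.48 to 6.28 and from 0.42 to 3.76. The values of the 2 replicates had a Pearson correlation of 0.16 over the 548 regions of 3R (Spearman 0.15) and 0.25 over the 299 regions of *D. miranda* (Spearman 0.25). Shared regions of the other chromosomes gave Pearson correlations of 0.08 in *D. melanogaster* and 0.27 in *D. miranda*. With centers within 200 bp, the Pearson correlation was 0.13 over 112 regions of 3R (Spearman 0.09). It was 0.34 over 56 regions of Muller E of *D. miranda* (Spearman 0.38). In both replicates, 11 of the 548 regions of 3R and 6 of the 299 of Muller E of *D. miranda* were among the upper 10% of their list, with ties included. In single lists, 11.1% and 10.8% of all assembled peaks were so in *D. melanogaster* replicates 1 and 2, and 22.0% and 10.6% in those of *D. miranda*. These are shares of peaks in 1 list, whereas the counts require a high value in both lists. A region also takes the highest value of its joined peaks in each list. The counts are therefore not comparable with these shares, and no conclusion on agreement is drawn from them. The regions of the other chromosomes were not counted in this way, so the counts are not a trait of Muller E. By the correlations above, a level measured in 1 library gave limited information on the level in the other, as a description over regions that share their libraries.

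**Figure D5:**
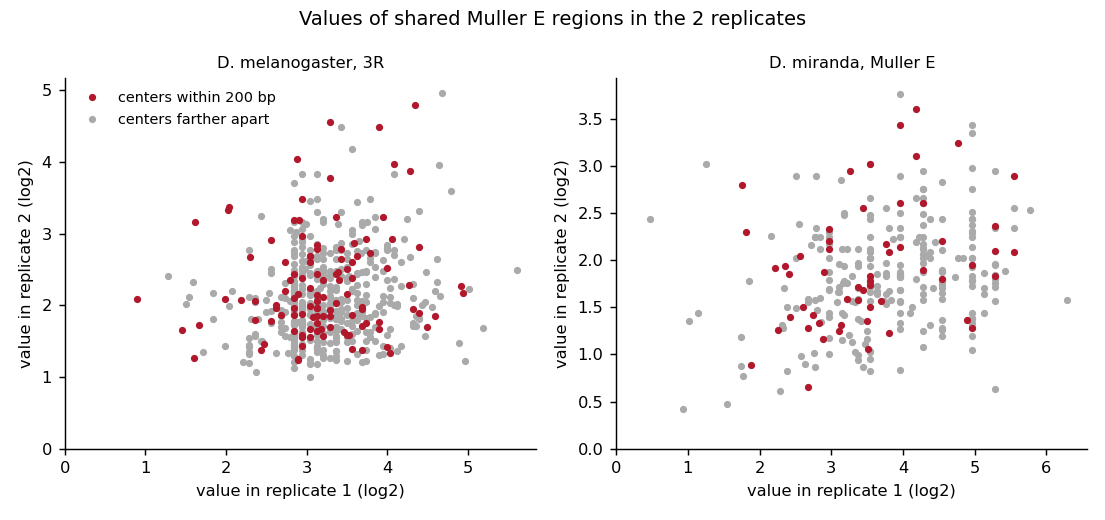
Log2 value of each shared Muller E region in replicate 1 (horizontal) and replicate 2 (vertical), for 548 regions of 3R and 299 regions of Muller E of *D. miranda*, with regions whose peak centers lie within 200 bp in red. The points form a broad cloud with Pearson correlations of 0.16 and 0.25, and vertical rows of points mark values that many peaks of a list share.

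The shared region of 3R with the best mean percentile of value spanned 5136589 to 5140577 (dm3) and had a log2 value of 4.68 in replicate 1 and 4.97 in replicate 2. Its peaks overlapped by 97 bp only, with centers 1946 bp apart. The next, from 12067298 to 12069575, had values of 4.34 and 4.79, with peaks that overlapped by 2211 bp and centers 9.5 bp apart. It was followed by the region from 10561641 to 10568522, with values of 4.64 and 3.96, where a single replicate 1 peak spanned 2 replicate 2 peaks. The region from 9699113 to 9704111 had values of 4.79 and 3.59, and that from 26737022 to 26739364 had values of 4.28 and 3.88 with centers 36 bp apart. Of these 5 regions, the second and the last have centers that coincide most closely in both libraries.

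On Muller E of *D. miranda*, the best shared region lay from 7722694 to 7723736 of the assembly used for the lists, with log2 values of 5.55 and 2.90 and centers 26 bp apart. The region from 10067438 to 10069566 had values of 5.28 and 2.94, with an overlap of 147 bp. The region from 3639081 to 3641736 had values of 5.77 and 2.53. The regions from 19653580 to 19656006 and from 21052710 to 21054432 had values of 5.55 and 2.55 and of 4.96 and 3.44. Among these 5 regions, only the first has centers within 200 bp. Annotation of these builds was not used here, so the genes at these positions are not named, and no sequence is shown.

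Of the 2 Muller E peaks of highest value in each list, some were overlapped in the other replicate and some were not. In *D. melanogaster* replicate 1, the highest on 3R lay from 10108157 to 10111074 with a value of 5.60 and from 21806862 to 21810275 with a value of 5.18, and both were overlapped in replicate 2. In replicate 2, the highest were tied at 6.97, from 14962812 to 14963831 and from 26305642 to 26306641, with widths of 1020 and 1000 bp, and neither was overlapped in replicate 1. In *D. miranda* replicate 1, the highest lay from 31630029 to 31632089 with a value of 6.66 and was not overlapped, whereas the next, from 4797399 to 4799411 with a value of 6.28, was. In *D. miranda* replicate 2, the highest values of 4.02 (3994602 to 3995903) and 3.90 (3884698 to 3885697) belonged to peaks that were not overlapped. Of all assembled peaks, 25.7% and 27.4% were overlapped in *D. melanogaster* replicates 1 and 2, and 37.5% and 10.9% in those of *D. miranda*. With 2 peaks per list, this does not show how peaks of highest value differ from the others.

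The widest peak of 3R measured 7008 bp in replicate 1 (657611 to 664618), with a value of 4.26, and was overlapped in replicate 2. In replicate 2, the widest measured 5879 bp (9841286 to 9847164), with a value of 1.82, and was not overlapped. In *D. miranda*, the widest measured 4439 bp in replicate 1 (14063210 to 14067648), with a value of 2.75. In replicate 2 it measured 8065 bp (15792878 to 15800942), with a value of 0.77. Both *D. miranda* peaks were overlapped in the other replicate. The widest peaks therefore did not carry the highest values of their lists.

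The share of peaks found again was compared between classes of value within each list. From the lowest to the highest of the 4 classes of value, the share of Muller E centers of *D. miranda* replicate 1 that lay in a replicate 2 peak was 31.1% (exact 95% interval 25.2 to 37.6), 27.5% (22.0 to 33.6), 19.2% (13.9 to 25.4) and 17.2% (12.1 to 23.3). In *D. miranda* replicate 2, it was 9.69% (7.66 to 12.05), 6.17% (4.56 to 8.15), 5.24% (3.80 to 7.02) and 5.03% (3.53 to 6.92). On 3R, it was 16.3% (13.5 to 19.3), 14.5% (11.8 to 17.5), 12.98% (10.3 to 16.1) and 18.6% (15.4 to 22.2) in replicate 1. In replicate 2 it was 17.3% (14.4 to 20.5), 17.8% (14.6 to 21.3), 16.4% (13.2 to 20.0) and 18.7% (14.7 to 23.2). The intervals of the lowest and highest classes do not overlap in the *D. miranda* lists and do overlap on 3R. By overlap of at least 1 bp, the shares from the lowest to the highest class were 22.5%, 22.3%, 22.9% and 29.2% on 3R in replicate 1 and 31.7%, 29.7%, 25.5% and 27.1% in replicate 2. The *D. miranda* shares were 41.7%, 40.8%, 29.0% and 30.2% for replicate 1, and replicate 2 had 14.4%, 10.2%, 8.36% and 9.05%. By this measure, the highest class had a lower share than the lowest class in 3 of the 4 lists, all but *D. melanogaster* replicate 1. Peak width also differed between the classes, with medians from the lowest to the highest class of 1000, 1085, 1453 and 1990 bp on 3R in replicate 1 and 1714, 1540, 1362.5 and 1187 bp in replicate 2. The *D. miranda* medians were 1678.5, 1534, 1000 and 1000 bp for replicate 1, and replicate 2 had 1597, 1419, 1227 and 1111.5 bp. The part of width in these shares and the difference between the species were not tested. The shares by class were not calculated for the other chromosomes, so they are not shown to be particular to Muller E.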

How the data were processed

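Processed peak lists of 4 CLAMP ChIP libraries were analysed. According to the labels and methods, the authors aligned reads with Bowtie (version not given in the sources used here) to dm3 or a published *D. miranda* assembly, keeping unique alignments, removed positions with anomalous tag counts, and called peaks with SPP on each replicate, not on pooled replicates. The lists deposited by the authors hold a start, an end and 1 unnamed value per peak, taken to be the ChIP enrichment over input, scaled by library size, on a log2 scale. Of 256, 1595, 300 and 929 distinct values in the 4 lists, 157, 887, 164 and 412 had a partner exactly 1 away (tolerance 1e-08). Library depth is not recorded in the lists, and the 4 input libraries enter only through the peak calls. The paper states aligned ChIP reads per library, with fewer in replicate 2 than in replicate 1 for *D. melanogaster* and more for *D. miranda*. The effect of depth was not tested. Whether the 2 samples of a species came from separate larvae is not stated, so replicate spread may be technical.

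The last peak end found in the 2 replicates served as chromosome length. Heterochromatic or unplaced peaks of *D. melanogaster* (93 and 368) were left out. Densities were compared by exact conditional binomial tests (scipy 1.17.1, numpy 2.4.6), with a threshold of 0.05 on the Benjamini-Hochberg adjusted p. Intervals are exact, at 95%, and cover counting error only. Calculations were tested on made data, with simulated Poisson counts for the density test, so that check does not cover uneven spacing of peaks. In every list, the variance of peak counts per 1 Mb window exceeded their mean. Their ratio was 1.36 on 3R and 2.15 on the other chromosomes in *D. melanogaster* replicate 1. In *D. miranda* replicate 2 it was 1.85 on Muller E and 1.65 on the other chromosomes. The density tests and intervals do not take this into account. Named regions were in each species the 5 shared regions ranked highest by mean percentile of value within the lists, the 2 highest and the widest peak per list, and the 1 Mb windows with the most and fewest peaks summed over both replicates. The members, comparisons and tests were chosen with earlier results of these data known; the ratios to single chromosomes and within classes of value or width were added after the values were seen. A planned count of GA-repeats under peaks was not run, because genome sequence of these builds was not used here. Alternatives covered chromosome length, the chromosomes compared, value and width limits, the overlap rule and single replicates.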

Additional observations from a re-analysis of the deposited data

Results flagged for a closer look

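The density ratio of Muller E to the other assembled chromosomes lay above 1 in both *D. melanogaster* replicates, at 1.18 and 1.00 (1.0041 before rounding), and below 1 in both *D. miranda* replicates, at 0.984 and 0.984. It was flagged only because the point estimates of the species fall on opposite sides of 1. The ratio of *D. melanogaster* replicate 2, with an interval of 0.954 to 1.06, was not distinguishable from 1. It turned to 0.799 with only peaks at or above the median value of the list. The difference between the species was not tested. The interval of *D. melanogaster* replicate 1 alone leaves out 1, and in *D. miranda* the ratio lay above 1 when only autosomes were compared.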

How the results depend on the processing

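Of 80 recalculations of 20 results, 55 kept their direction and side of the threshold or, for values with no test, moved by less than the spread. Among the 55, the median width difference of *D. miranda* replicate 1, 8 bp, had the opposite sign at -12 bp without peaks of the smallest width and -17.7 bp with means. The higher density on 3R in *D. melanogaster* replicate 1 passed the exact test under all 5 alternatives that give a test, with p not adjusted. Against autosomes only, the *D. miranda* density ratios turned to 1.04 and 1.03 in replicates 1 and 2, and that of shared regions to 1.02. With only peaks at or above the median value of their list, the ratio for 3R in replicate 2 turned to 0.799 (exact test p = 3.42e-09, not adjusted). That p covers counting error within 1 library only. Under the same limit on value, the ratios of shared regions turned to 0.869 on 3R and 1.01 in *D. miranda*. Peaks of 1 replicate in place of shared regions gave 1.00 to 1.18 on 3R. The overlapped share of Muller E peaks moved with the rule in the lists of *D. melanogaster* replicates 1 and 2 and *D. miranda* replicates 1 and 2. It was 12.02%, 14.5%, 19.1% and 5.46% with reciprocal overlap of 50%, and 4.74%, 5.71%, 6.57% and 1.88% with centers within 200 bp. Limited to peaks at or above the median value, it was 11.5%, 16.9%, 16.2% and 4.92%. Compared with the uncut other list, the class of value with the smallest share still reached 22.3%, 25.5%, 29.0% and 8.36%. The limit on value thus shortened the other list too, which can only lower the share. These falls therefore do not show that peaks of higher value are found again less often. The median value difference became -0.053 in *D. miranda* replicate 1 with means. In replicate 2 it turned to -0.0083 with means and -0.0018 without peaks of the smallest width. Against autosomes only, the median width difference turned to 23.5 bp in *D. melanogaster* replicate 2 and 11 bp in *D. miranda* replicate 2, and moved to 37.5 bp in *D. miranda* replicate 1. The cause of these changes was not tested. No paired analysis was possible because each peak list was tested within itself and replicate numbers pair no libraries across species. Library depth limits comparisons of peak numbers between lists, and for *D. melanogaster* replicate 2 the stated number and percentage of aligned reads disagree. The GA-repeat count was not run.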

Other observations

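On Muller E, wider peaks had higher values in 1 of the 4 lists only. The Spearman correlation of width and value over the peaks of 3R was 0.58 in *D. melanogaster* replicate 1 (2363 peaks) but -0.24 in replicate 2 (1960 peaks), and over the peaks of Muller E of *D. miranda* it was -0.44 and -0.32 in replicates 1 and 2 (853 and 2985 peaks). The peaks of the other chromosomes gave 0.59, -0.22, -0.49 and -0.30 in the same lists. The 2 libraries of *D. melanogaster* thus rank their peaks in opposite ways with respect to width. These correlations are descriptions over peaks of 1 library, and their cause was not tested.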
